A study of Mus musculus with 8 samples.

Results

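The genes described here code for the proteins that coat, enlarge or break down the lipid droplet of the mouse hepatocyte. They were chosen by name as 10 genes, namely the perilipins Plin2, Plin4 and Plin5, the droplet enzyme Hsd17b13, the CIDE genes Cidea, Cideb and Cidec, the lipases Pnpla2 and Pnpla3, and the lipase inhibitor G0s2. All 10 were found by their Ensembl identifiers among the 52636 genes of the count tables, and all 10 were among the 15248 genes with enough counts to be tested.

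The samples were livers of 8 male wild-type C57BL/6J mice, 1 library per mouse. At 7 weeks of age the mice received AAV8, a liver-directed adeno-associated virus vector, and every mouse began the MASH diet at 8 weeks of age. This diet, which is rich in fat, fructose and cholesterol and produces steatohepatitis, was kept up for 24 weeks. In 4 mice (animals 303, 311, 314 and 315) the virus was AAV8-TBG-GFP, called AAV8-GFP here, and in the other 4 (animals 308, 309, 316 and 319) it was AAV8-TBG-AGXT, called AAV8-AGXT here. The TBG promoter restricts the transgene to hepatocytes, and AGXT codes for the human alanine-glyoxylate aminotransferase, which turns glyoxylate into glycine. Both groups carried a virus and ate the MASH diet, so the comparison was of AGXT with GFP in steatohepatitis, and no group on a normal diet was analysed here. Mouse Agxt was between 148.3 and 179.9 CPM (read counts scaled to the depth of the library) in AAV8-GFP mice and between 201.5 and 405.3 CPM in AAV8-AGXT mice (log2 fold change 0.90 ± 0.22 SE, edgeR adjusted p = 0.0489). This call was kept in 1 of the 8 refits with a mouse left out, with an edgeR adjusted p of up to 0.146 (without mouse 311), and was lost with total counts (edgeR adjusted p = 0.0566). Read pairs of the human transgene that align to mouse Agxt cannot be told apart in these counts from those of the mouse gene.

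A lipid droplet is a core of triglyceride and cholesteryl ester inside a single layer of phospholipid. Perilipins sit on that layer and limit the access of lipases, CIDE proteins gather where droplets touch and move lipid from the smaller to the larger one, and adipose triglyceride lipase, the product of Pnpla2, takes the first fatty acid off a stored triglyceride. In liver, many of these genes are targets of the nuclear receptors PPARα or PPARγ, and several of them rise when fat accumulates.

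The number of read pairs assigned to genes ranged from 17095433 to 28780140 per mouse. Mouse 308 had the smallest share of its pairs on genes, 56.3%, against 62.4% to 69.1% in the other mice, and it also stood apart on the first principal component of all tested genes. The calls lost without it are named beside the results, and the log2 fold changes of Plin2, Plin5, G0s2 and Pnpla3 are also given without it. Values are CPM after TMM normalization, and groups are given as mean ± SD over 4 mice. The main test was the quasi-likelihood test of edgeR with Benjamini-Hochberg adjustment over the 15248 genes, and an adjusted p below 0.05 counted as a call. At this threshold 374 genes (2.45%) were higher and 290 (1.90%) lower in AAV8-AGXT mice, 4.35% in either direction. That split came to 144 higher and 857 lower with total counts in place of the TMM factors, which moved the median log2 fold change of all genes from 0.02 to -0.22, and to 254 and 298 with upper-quartile factors. In whole liver, fewer cells of a type and less RNA per cell cannot be told apart.

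Of the 10 genes, 1 was called higher in AAV8-AGXT mice and 0 were called lower, beside 2.45% and 1.90% of all tested genes, or 1 of 10 beside 4.35% in either direction. The gene called was Pnpla2. At an unadjusted p under 0.05, edgeR still gave 1 higher and 0 lower, beside 13.5% and 12.6% of all tested genes. DESeq2 gave 1 and 0 at that level, beside 7.78% and 8.36% of the 28289 genes with a p from it. The limma-voom test gave 2 and 0, beside 13.4% and 12.9% of the 15248 genes. After adjustment DESeq2 called 6.58% higher and 6.37% lower of the 16225 genes to which it gave an adjusted p. The limma-voom shares were 2.65% and 1.82% of the 15248 genes. Shares over different numbers of genes are not directly comparable. The log2 fold change was positive for 8 of the 10, beside 7974 of the 15248 tested genes. Its median over the 10 was 0.26, beside 0.02 over all tested genes. With DESeq2 the estimate was positive for 7 of the 10, beside 13477 of the 28289 genes with a p from it. With total counts the estimates of Cidec (-0.0047) and Hsd17b13 (-0.2202) turned negative. Pnpla2 was also the one gene of the 10 whose normalized values did not overlap between the groups, which held for 16.6% of all tested genes. Whether the change of Pnpla2 differed from that of another of the 10 genes was tested for G0s2 and Pnpla3, as ratios of counts, and not for the other 7.

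**Figure D1:**
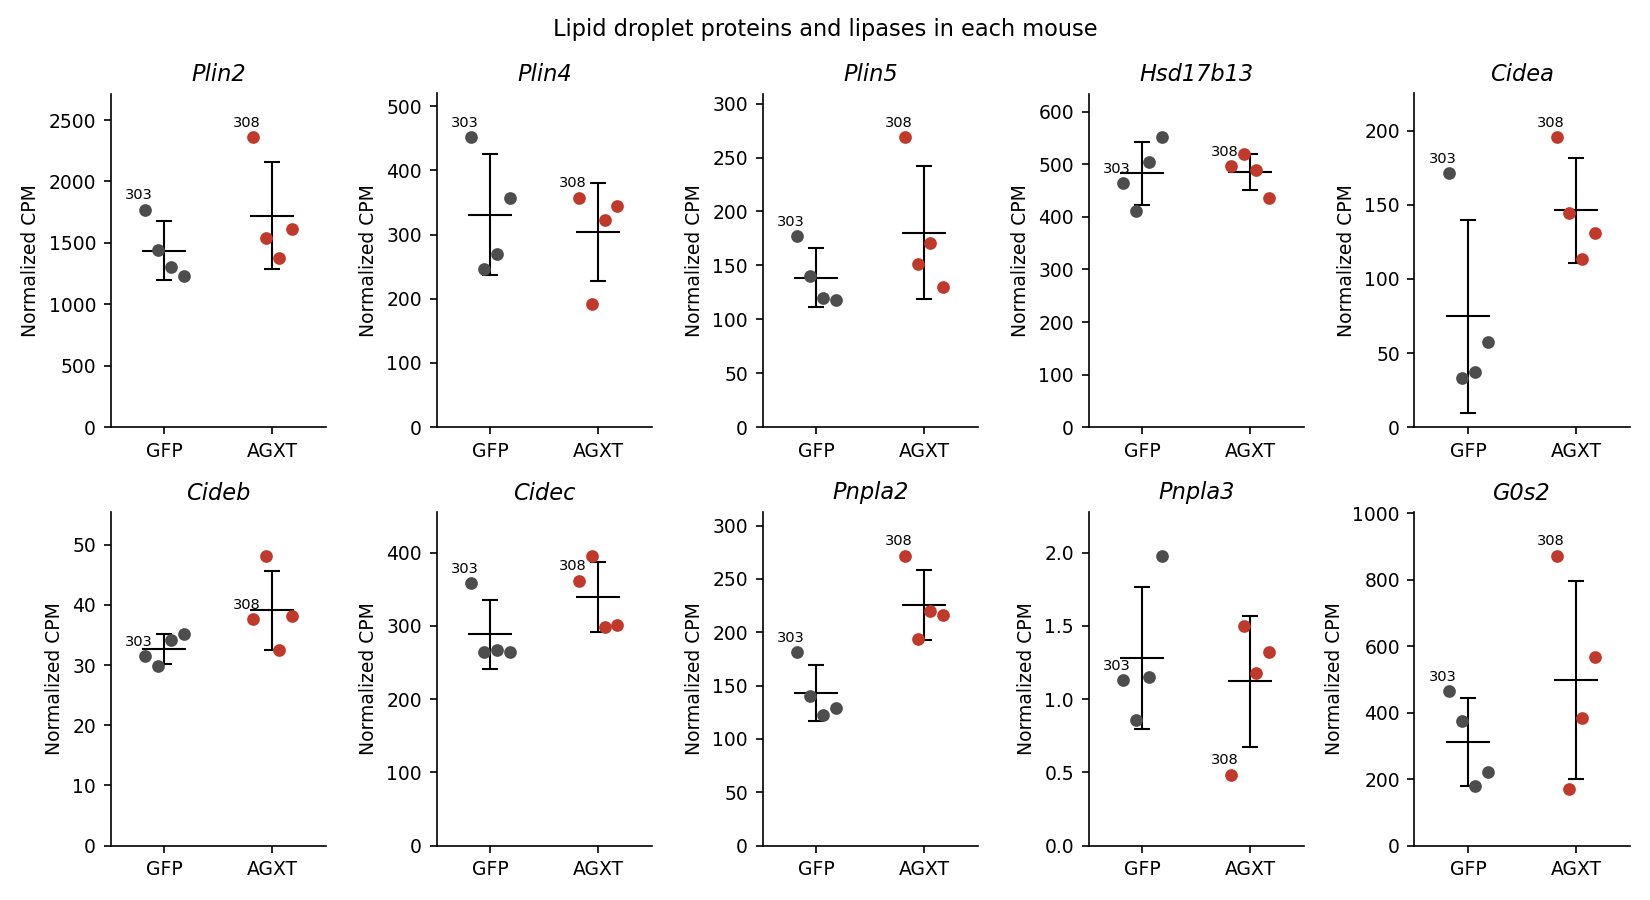
Normalized CPM (linear axes from 0) of the 10 genes in the 4 AAV8-GFP mice (grey) and the 4 AAV8-AGXT mice (red), with mean and SD in black and mice 303 and 308 labelled. All 4 red points lie above all 4 grey points for Pnpla2, and mouse 303 is near the AAV8-AGXT mice for Cidea.

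Pnpla2 lies on the forward strand of GRCm38 at chr7:141455198-141460743. It was at 181.1 CPM in mouse 303, 140.4 in 311, 122.2 in 314 and 129.2 in 315 of the AAV8-GFP group. In the AAV8-AGXT group it was at 272.0 CPM in mouse 308, 193.8 in 309, 220.1 in 316 and 216.5 in 319. The lowest AAV8-AGXT mouse therefore lay above the highest AAV8-GFP mouse. The mean rose from 143.2 ± 26.3 to 225.6 ± 33.1 CPM, a 1.58-fold difference (log2 fold change 0.66 ± 0.16 SE, 95% interval 0.31 to 1.00, edgeR adjusted p = 0.0484). A two-sided exact permutation test of this gene alone gave p = 0.0286, the smallest that 4 mice against 4 allow.

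The call for Pnpla2 lay close to the threshold. DESeq2 gave an adjusted p of 0.00287 and limma-voom one of 0.0431, whereas edgeR gave 0.0507 with the size factors of DESeq2, 0.0681 with upper-quartile factors and 0.0964 with total counts. With 1 mouse left out, the edgeR adjusted p was 0.0475 without mouse 303 and 0.0496 without 309, but 0.164 without 311, 0.127 without 314, 0.0706 without 315, 0.102 without 308, 0.0696 without 316 and 0.104 without 319. The direction was kept throughout, with log2 fold changes between 0.41 and 0.79. With total counts the lower value, 0.41, stood against the lower median of all genes, and relative to that median Pnpla2 was 0.63 higher, beside 0.64 with the TMM factors.

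Of the 9 hepatocyte markers found in the tables, all 9 had positive log2 fold changes, as Pnpla2 had, beside 7974 of the 15248 tested genes. At an unadjusted p under 0.05 edgeR gave 6 of the 9 higher and 0 lower, beside 13.5% and 12.6% of all tested genes. Cps1, the first enzyme of the urea cycle, was the 1 that was called (0.96 ± 0.16 SE, edgeR adjusted p = 0.0279), beside 2.45% of all tested genes called higher. The summed level of the 9 markers ranged from 49149 to 59915 CPM in AAV8-GFP mice and from 59048 to 81852 CPM in AAV8-AGXT mice (two-sided exact permutation test, p = 0.0571). Their part in the Pnpla2 difference was not tested.

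The promoter of Pnpla2 is shown because it belongs to the gene that was called. That of Plin2 is shown because Plin2 had the highest level per length in AAV8-GFP mice. Its window was also the only window among these genes with more than a single kind of motif. RefSeq promoter windows on GRCm38.p6, reaching from 250 bases before to 50 bases after the start of transcription, were found for 9 of the 10 genes, 11 windows in all, and not for Cidea. They were searched on both strands for the element that PPARα binds with its partner RXR, a direct repeat of AGGTCA half-sites with a single base between them, for the E-box CACGTG and for the CCAAT box. The first line is on the forward strand at chr7:141454938-141455189 and the second on the reverse strand at chr4:86670058-86670309, each 252 bases long, with the matches in capitals.
Pnpla2: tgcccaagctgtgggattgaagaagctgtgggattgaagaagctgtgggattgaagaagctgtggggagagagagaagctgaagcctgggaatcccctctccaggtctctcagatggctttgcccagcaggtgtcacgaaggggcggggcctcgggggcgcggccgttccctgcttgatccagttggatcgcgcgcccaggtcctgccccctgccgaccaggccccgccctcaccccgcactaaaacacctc
Plin2: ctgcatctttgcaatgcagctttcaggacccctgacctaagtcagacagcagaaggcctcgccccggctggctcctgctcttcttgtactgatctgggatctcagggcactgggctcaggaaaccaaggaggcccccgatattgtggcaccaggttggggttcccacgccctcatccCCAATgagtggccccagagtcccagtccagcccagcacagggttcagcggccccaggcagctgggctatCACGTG

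The Pnpla2 window held none of the motifs, and the capitals in the Plin2 line mark a CCAAT box and, at its end, an E-box across the start of transcription. No window of these genes held the direct repeat, exactly or with 1 mismatch, which 0.0396% and 0.554% of all 32851 windows did. The E-box was found in the Plin2 window alone among these genes and in 7.15% of all windows. A CCAAT box was found in the windows of Plin2, Plin4 and Pnpla3 and in 1 of the windows of Plin5, and in 37.4% of all windows. A match or its absence in this short window describes the letters and says nothing about binding.

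G0s2 codes for a small protein that binds and inhibits the lipase made from Pnpla2, and it lies on the reverse strand at chr1:193272161-193273217. It was at 465.4 CPM in mouse 303, 374.7 in 311, 180.3 in 314 and 222.5 in 315. In AAV8-AGXT mice it was at 872.6 CPM in mouse 308, 170.1 in 309, 384.9 in 316 and 567.8 in 319. The groups overlapped widely, since mouse 308 held the highest value and mouse 309 of the same group the lowest. The means were 310.8 ± 132.7 and 498.9 ± 297.5 CPM (log2 fold change 0.68 ± 0.45 SE, 95% interval -0.33 to 1.70, edgeR adjusted p = 0.368). Its log2 fold change was close to that of Pnpla2 (0.66), with a standard error of 0.45 in place of 0.16. Without mouse 308 the log2 fold change of G0s2 was 0.25.

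The counts of inhibitor per count of lipase were compared in each mouse, since a ratio within a library needs no depth scaling. There were 2.57 G0s2 counts per Pnpla2 count in mouse 303, 2.67 in 311, 1.48 in 314 and 1.72 in 315, and 3.21 in mouse 308, 0.878 in 309, 1.75 in 316 and 2.62 in 319. Mouse 309 was the one animal with fewer G0s2 than Pnpla2 counts. The mean log2 ratio was 1.03 ± 0.42 in AAV8-GFP and 0.92 ± 0.83 in AAV8-AGXT mice, a difference of -0.11 (two-sided exact permutation test, p = 0.914, adjusted over 4 ratios p = 0.971). With 1 mouse left out this difference ranged from -0.36 to 0.26.

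Pnpla3 codes for a lipase related to the product of Pnpla2 that sits on droplets and competes for its co-activator, and it lies at chr15:84167837-84187236 on the forward strand. It was scarce in these livers, with 29 counts in mouse 303, 28 in 311, 25 in 314 and 45 in 315, and 7 in mouse 308, 25 in 309, 23 in 316 and 28 in 319. The 7 counts of mouse 308 have an exact 95% Poisson interval of 2.81 to 14.4 counts, for counting error only, whereas the 45 counts of mouse 315 have one of 32.8 to 60.2. The group means were 1.28 ± 0.49 and 1.12 ± 0.45 CPM (log2 fold change -0.17 ± 0.38 SE, 95% interval -1.02 to 0.68, edgeR adjusted p = 0.817). On the fold scale this interval runs from 0.494 to 1.61. It gives the folds compatible with these counts and is not a limit of detection, which was not computed. The sign turned without mouse 315 (0.12) and without mouse 308 (0.06). Per Pnpla2 count, the log2 level of Pnpla3 was -6.86 ± 0.63 in AAV8-GFP and -7.76 ± 0.94 in AAV8-AGXT mice, a difference of -0.90 (two-sided exact permutation test, p = 0.143, adjusted over 4 ratios p = 0.571). With 1 mouse left out this difference ranged from -1.15 (without mouse 309) to -0.45 (without mouse 308).

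**Figure D2:**
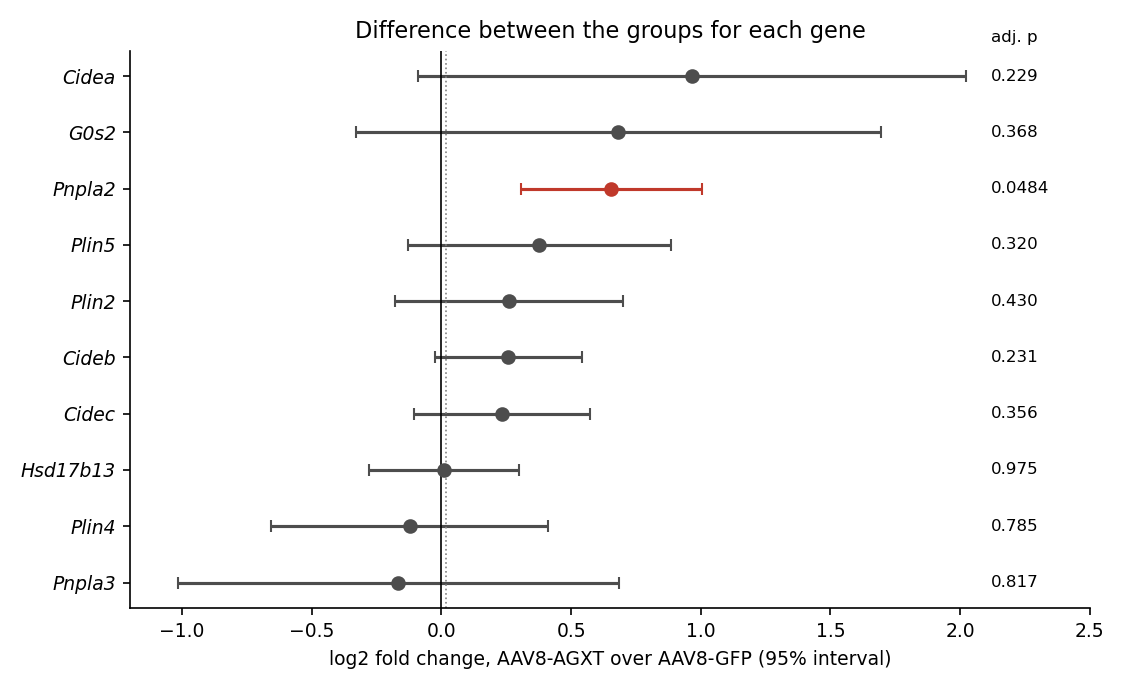
Log2 fold change of each gene, AAV8-AGXT over AAV8-GFP, with its 95% interval from edgeR and the adjusted p at the right, in red where the gene was called. The dotted line marks the median of all tested genes, 0.02. The interval of Pnpla2 (0.31 to 1.00) lies above 0, and those of the other 9 genes include 0.

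Plin2, the perilipin that covers droplets in most cells and is kept from degradation by lipid, lies at chr4:86648386-86670060 on the reverse strand. It was at 1769.4 CPM in mouse 303, 1445.8 in 311, 1302.4 in 314 and 1232.4 in 315. In AAV8-AGXT mice it was at 2362.1 CPM in mouse 308, 1536.1 in 309, 1378.4 in 316 and 1614.5 in 319. Mouse 308 lay above all others, and the remaining values of the groups were interleaved. The means were 1437.5 ± 238.4 and 1722.8 ± 437.4 CPM (log2 fold change 0.26 ± 0.20 SE, 95% interval -0.18 to 0.70, edgeR adjusted p = 0.430). Without mouse 308 the log2 fold change fell to 0.06.

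Plin5, the perilipin of tissues that oxidize fat, where it holds droplets to mitochondria, lies at chr17:56111601-56117596 on the reverse strand. It was at 176.9 CPM in mouse 303, 140.0 in 311, 120.0 in 314 and 118.1 in 315, and at 269.0 in mouse 308, 151.1 in 309, 170.8 in 316 and 130.0 in 319. As for Plin2, mice 303 and 308 were the highest of their groups. The means were 138.7 ± 27.3 and 180.2 ± 61.5 CPM (log2 fold change 0.38 ± 0.23 SE, 95% interval -0.13 to 0.88, edgeR adjusted p = 0.320). Without mouse 308 the log2 fold change of Plin5 was 0.10. The log2 ratio of Plin2 to Plin5 counts was between 3.32 and 3.44 in the AAV8-GFP mice and spread from 3.01 to 3.63 in the AAV8-AGXT mice. Its mean differed by -0.10 between the groups (two-sided exact permutation test, p = 0.486, adjusted over 4 ratios p = 0.971).

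Plin4, a perilipin best known from adipose tissue and muscle, neighbours Plin5 on the same strand at chr17:56100591-56109803. It was at 452.0 CPM in mouse 303, 246.3 in 311, 269.5 in 314 and 357.0 in 315, and at 357.5 in mouse 308, 192.4 in 309, 322.4 in 316 and 344.7 in 319. The means were 331.2 ± 93.6 and 304.3 ± 76.0 CPM (log2 fold change -0.12 ± 0.24 SE, 95% interval -0.66 to 0.41, edgeR adjusted p = 0.785). The sign turned without mouse 303 (0.07) and without mouse 309 (0.02). Plin4 and Plin5, although neighbours, had fold changes of opposite sign, neither of them called.

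Hsd17b13, a hepatocyte enzyme anchored on droplets, lies at chr5:103955440-103977410 on the reverse strand. It was at 463.7 CPM in mouse 303, 411.2 in 311, 503.8 in 314 and 551.9 in 315, and at 496.4 in mouse 308, 519.2 in 309, 489.9 in 316 and 436.8 in 319. The AAV8-AGXT values lay within the range of the AAV8-GFP values. The means were 482.6 ± 59.7 and 485.6 ± 34.8 CPM (log2 fold change 0.01 ± 0.13 SE, edgeR adjusted p = 0.975). The 95% interval of the log2 fold change, -0.28 to 0.30, was among the narrowest of the 10 genes.

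Cidea, which is abundant in brown fat and is switched on in steatotic liver, lies at chr18:67343604-67367785 on the forward strand. It was at 171.3 CPM in mouse 303, 32.9 in 311, 37.5 in 314 and 57.8 in 315. In AAV8-AGXT mice it was at 195.8 CPM in mouse 308, 144.6 in 309, 113.5 in 316 and 131.0 in 319. Mouse 303 lay inside the range of the AAV8-AGXT mice, and the other 3 AAV8-GFP mice lay below all 4 of them. The means were 74.9 ± 65.2 and 146.2 ± 35.4 CPM, the largest fold change of the 10 genes and the widest interval (1.95-fold, log2 fold change 0.97 ± 0.47 SE, 95% interval -0.09 to 2.02, edgeR adjusted p = 0.229). The AAV8-GFP values spanned 5.21-fold and the AAV8-AGXT values 1.72-fold. With mouse 303 left out the log2 fold change was 1.78 ± 0.25 SE and the gene was called (edgeR adjusted p = 0.0264), whereas it was between 0.69 and 1.07 and not called with any other mouse left out. Nothing in the labels sets mouse 303 apart, so the value over all 8 mice is the result.

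Cidec, the CIDE gene that drives the growth of large droplets in white fat and fatty liver, lies at chr6:113424634-113435760 on the reverse strand. It was at 358.2 CPM in mouse 303, 264.0 in 311, 266.5 in 314 and 264.6 in 315, and at 361.6 in mouse 308, 396.0 in 309, 297.9 in 316 and 300.6 in 319. As for Cidea, the other 3 AAV8-GFP mice lay below every AAV8-AGXT mouse, and mouse 303 lay among them. The means were 288.3 ± 46.6 and 339.0 ± 48.0 CPM (log2 fold change 0.23 ± 0.15 SE, 95% interval -0.10 to 0.57, edgeR adjusted p = 0.356). With total counts in place of the TMM factors the log2 fold change of Cidec was near 0 (-0.0047).

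Cideb, the CIDE gene that hepatocytes express at all times and that also serves the lipidation of very-low-density lipoprotein, lies at chr14:55754050-55758458 on the reverse strand. It was at 31.5 CPM in mouse 303, 29.8 in 311, 34.2 in 314 and 35.2 in 315, and at 37.6 in mouse 308, 48.2 in 309, 32.5 in 316 and 38.2 in 319. The means were 32.7 ± 2.46 and 39.1 ± 6.57 CPM (log2 fold change 0.26 ± 0.13 SE, 95% interval -0.03 to 0.54, edgeR adjusted p = 0.231). The log2 ratio of Cidec to Cideb counts was 3.13 ± 0.27 and 3.12 ± 0.13, a difference of -0.01 (two-sided exact permutation test, p = 0.971, adjusted over 4 ratios p = 0.971). Of the 1488 exon bases of Cideb, 1136 (76.3%) are shared with Nop9 on the other strand. Pairs in such shared exons were not counted in these tables, because 43 genes that lie wholly inside exons of an opposite-strand gene with at least 5281 counts had 0 counts in all 8 mice. The Cideb counts therefore came from at most 352 bases, and 17 shared bases of Plin4 (0.294%) were the one other such overlap among the 10 genes.

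Levels of different genes were compared per length, as FPKM over the union of their exons. In AAV8-GFP mice the order was Plin2 (409.3 ± 67.9 FPKM), G0s2 (356.8 ± 152.3), Hsd17b13 (223.8 ± 27.7), Cidec (155.3 ± 25.1), Cidea (67.1 ± 58.5), Plin5 (66.5 ± 13.1), Plin4 (57.3 ± 16.2), Pnpla2 (47.4 ± 8.72), Cideb (22 ± 1.65) and Pnpla3 (0.828 ± 0.315). Of the neighbours in this order, Pnpla2 and Cideb, and Cideb and Pnpla3, did not overlap over the 4 mice, and all other neighbours did. Plin2 was above G0s2 in 2 of the 4 mice, and Cidea was above Plin5 in 1 of the 4, mouse 303. In AAV8-AGXT mice G0s2 (572.7 ± 341.6 FPKM) stood before Plin2 (490.5 ± 124.5), and Pnpla2 (74.7 ± 10.9) stood before Plin4 (52.7 ± 13.1) with no overlap between these last values. Counted on its 352 unshared bases, Cideb came to 92.9 ± 6.98 FPKM in AAV8-GFP and 111.1 ± 18.7 in AAV8-AGXT mice, so its place in the order depends on the length used. So does that of Plin2, at 761.4 ± 126.3 and 912.5 ± 231.7 FPKM over its longest transcript.

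**Figure D3:**
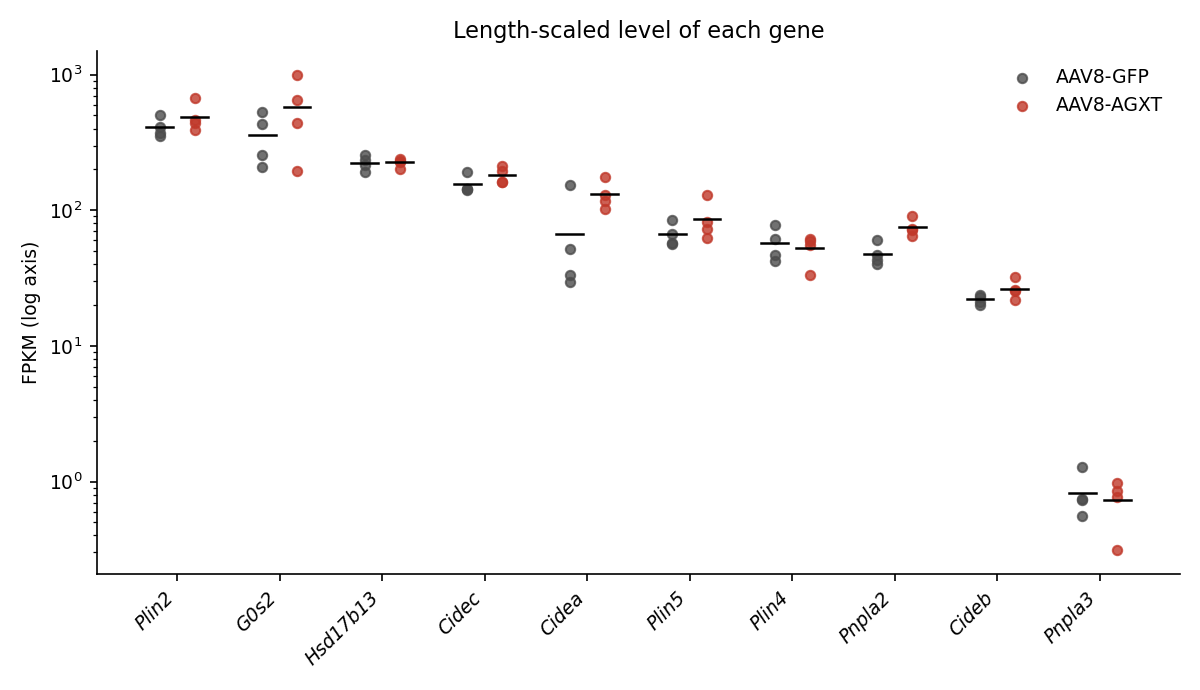
Length-scaled level in FPKM (log axis) of each gene in every AAV8-GFP mouse (grey) and AAV8-AGXT mouse (red), ordered by the AAV8-GFP mean, with group means as black lines. Plin2 and G0s2 are at the top, and Pnpla3, at 0.828 and 0.725 FPKM, is far below the other 9.

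As shares of the summed FPKM of Plin2, Plin3, Plin4 and Plin5, Plin2 made up 73.6% in AAV8-GFP and 75.3% in AAV8-AGXT mice, Plin5 11.9% and 13.2%, Plin4 10.3% and 8.24%, and Plin3, the perilipin that moves between cytosol and droplet, 4.27% and 3.28%. The balance among the CIDE genes varied more. Cidea made up 41.8% of their summed FPKM in mouse 303, 15.4% in 311, 16.8% in 314 and 23.8% in 315, and 44.4% in mouse 308, 34.5% in 309, 35.8% in 316 and 38.5% in 319. Its mean share was 24.4 ± 12.1% in AAV8-GFP and 38.3 ± 4.37% in AAV8-AGXT mice, and mouse 303 again lay within the AAV8-AGXT range. Cidec, at 65.9 ± 9.71% and 53.9 ± 3.55%, was the largest of the CIDE genes in all 8 mice. These shares depend on the length given to Cideb. With Cideb on its 352 unshared bases, the AAV8-GFP and AAV8-AGXT means were 19.1 ± 11.1% and 30.7 ± 4.28% for Cidea, 30.7 ± 6.87% and 26.2 ± 2.78% for Cideb, and 50.1 ± 4.86% and 43.1 ± 2.1% for Cidec. Cidec was then still the largest in all 8 mice, and mouse 303 (35.2% Cidea) still lay within the AAV8-AGXT range of 27.0% to 36.8%.

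**Figure D4:**
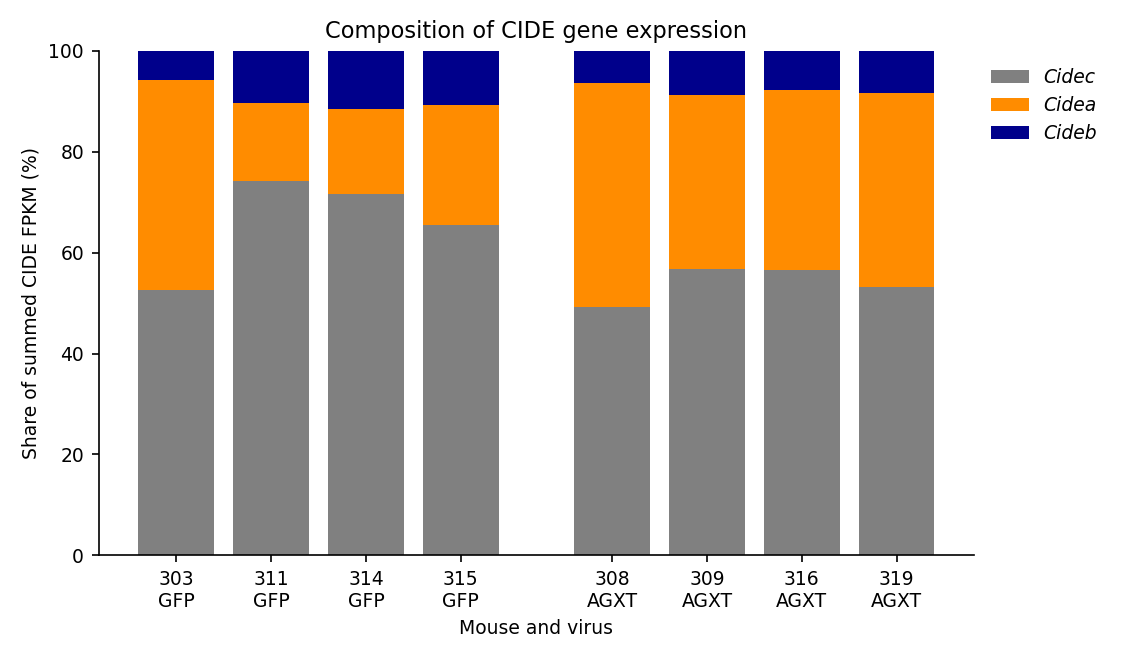
Share in percent of the summed CIDE FPKM that Cidec (grey), Cidea (orange) and Cideb (dark blue) made up in each mouse, with FPKM over the union of exons. Cidea made up 15.4% to 23.8% in AAV8-GFP mice 311, 314 and 315, 41.8% in mouse 303, and 34.5% to 44.4% in the AAV8-AGXT mice. With Cideb on its unshared bases only, its mean share is 30.7% and 26.2% in place of the 9.64% and 7.78% drawn here.

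The highest values of several genes fell on the same mice. Mouse 303 had the highest AAV8-GFP value for 7 of them (Plin2, Plin4, Plin5, Cidea, Cidec, Pnpla2 and G0s2), and mouse 308 the highest AAV8-AGXT value for 6 of these, all but Cidec. Mouse 303 had the lowest value of its group for none of the 10, and mouse 308 for Pnpla3. Mouse 308 was also the library with the smallest share of pairs on genes and the lowest TMM factor, 0.83, while mouse 303 had 63.3% of its pairs on genes and a factor of 1.09. The part of library composition in these high values was not tested.

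**Figure D5:**
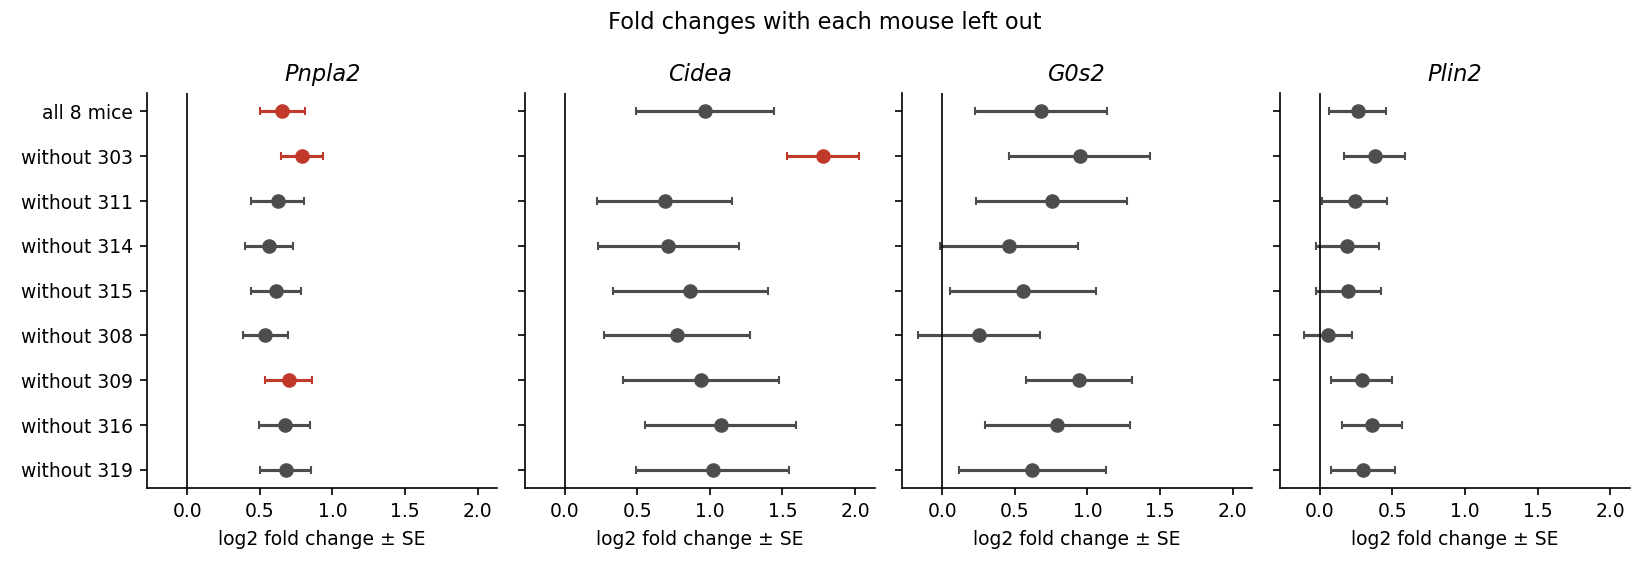
Log2 fold change with SE from edgeR for Pnpla2, Cidea, G0s2 and Plin2, over all 8 mice and with each mouse left out, in red where called. Pnpla2 stays between 0.54 and 0.79, Cidea moves to 1.78 without mouse 303, and Plin2 falls to 0.06 without mouse 308.

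The other genes of the pathway were read from lists given by function. Among 17 tested further droplet-bound proteins, 1 was called higher and 0 lower, beside 2.45% and 1.90% of all tested genes. The median log2 fold change of the 17 was 0.12, beside 0.02 over all tested genes. The gene called was Hsd17b7, a sterol-synthesis enzyme found on droplets, which rose from 13.8 ± 3.07 to 28.4 ± 3.52 CPM (log2 fold change 1.04 ± 0.16 SE, edgeR adjusted p = 0.0248). Plin1, the perilipin of adipocytes, had 13 counts over all 8 mice and was not tested. The 12 genes of droplet formation and triglyceride synthesis had a median of 0.30. Of them, 2 were called higher and 0 lower, beside 2.45% and 1.90% of all tested genes. These were Gpat4, which starts glycerolipid synthesis and moves onto growing droplets (141.6 ± 3.82 to 252.8 ± 27.6 CPM, log2 fold change 0.84 ± 0.11 SE, edgeR adjusted p = 0.0196), and Fitm2, which is needed for droplets to bud from the endoplasmic reticulum (71.6 ± 11.2 to 122.3 ± 22 CPM, 0.77 ± 0.16 SE, edgeR adjusted p = 0.0363).

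The 13 partners of the lipase and other neutral lipid hydrolases had a median of 0.36, beside 0.02 over all tested genes. Of them, 2 were called higher and 0 lower, beside 2.45% and 1.90% of all tested genes. Lipe, the hormone-sensitive lipase that acts on diglyceride after the product of Pnpla2, rose from 14.5 ± 2.58 to 24.3 ± 4.02 CPM (log2 fold change 0.74 ± 0.16 SE, edgeR adjusted p = 0.0410). Ces1d, a carboxylesterase that mobilizes triglyceride for lipoprotein assembly, rose from 211.2 ± 26.4 to 331.7 ± 56.5 CPM (0.65 ± 0.15 SE, edgeR adjusted p = 0.0451). The call of Ces1d was kept in 0 of the 8 refits with a mouse left out. It was also lost with total counts (edgeR adjusted p = 0.0681). Abhd5, the co-activator of the Pnpla2 lipase, was at 23.5 ± 0.828 and 26.9 ± 5.21 CPM (0.19 ± 0.13 SE, edgeR adjusted p = 0.383), and its sign turned with total counts (-0.04). Hilpda, another inhibitor of that lipase, was at 13.9 ± 4.21 and 8.38 ± 1.45 CPM (-0.73 ± 0.22 SE, edgeR adjusted p = 0.0795). It was called lower by DESeq2 (-0.75, adjusted p = 0.0221) and by edgeR with total counts (-0.97, adjusted p = 0.0448). The estimates for the inhibitors G0s2 and Hilpda had opposite signs, and neither was called by edgeR with the TMM factors. None of the 3 other PNPLA genes tested was called by edgeR, DESeq2 or limma-voom, and each tool gave 1 higher and 0 lower at an unadjusted p under 0.05, which 13.5% and 12.6% of all genes had with edgeR. The 3 genes were Pnpla7 (log2 fold change 0.34 ± 0.20 SE, and 0.09 without mouse 308), Pnpla8 (0.47 ± 0.16 SE) and Pnpla6 (-0.01 ± 0.12 SE).

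The 11 transcription factors that act on droplet genes had a median of 0.34, beside 0.02 over all tested genes. Of them, 2 were called higher and 0 lower, beside 2.45% and 1.90% of all tested genes. Ppara, the receptor for fatty acids that switches on their oxidation, rose from 43.3 ± 5.06 to 80.1 ± 22.1 CPM (log2 fold change 0.89 ± 0.19 SE, edgeR adjusted p = 0.0376), and Creb3l3, a fasting-activated hepatic factor, from 396.1 ± 47.1 to 645.2 ± 134.7 CPM (0.70 ± 0.17 SE, edgeR adjusted p = 0.0486). The 11 fasting-induced PPARα targets outside the 10 droplet genes had a median of 0.64. Of them, 5 were called higher and 0 lower, beside 2.45% and 1.90% of all tested genes. These were Cyp4a14 (log2 fold change 2.24 ± 0.42 SE) and Cyp4a10 (1.62 ± 0.32 SE), which hydroxylate fatty acids, Ehhadh of peroxisomal oxidation (1.43 ± 0.30 SE), Cpt1a, which admits fatty acids to the mitochondrion (0.73 ± 0.15 SE), and Acadm of mitochondrial oxidation (0.63 ± 0.14 SE), with edgeR adjusted p between 0.0335 and 0.0411. Of the 11 PPARα targets, 9 had positive estimates and 2 negative ones, Fgf21 (-0.40 ± 0.34 SE) and Pdk4 (-0.21 ± 0.49 SE). Angptl4 was positive and not called (0.25 ± 0.15 SE, edgeR adjusted p = 0.304). The calls on these lists, and on the cell type markers, depended on single mice. Without mouse 308, of 16 list genes called over all 8 mice, Hsd17b7, Gpat4, Cyp4a14, Cps1 and Cd9 kept their call and 11 lost it. The 11 were Fitm2, Lipe, Ces1d, Ppara, Creb3l3, Cyp4a10, Ehhadh, Cpt1a, Acadm, Cfd and Acta2, with edgeR adjusted p from 0.0586 (Cyp4a10) to 0.0897 (Cfd) and log2 fold changes of the same sign. Moreover, no gene of any list was called without mouse 311, 314 or 319. All tested genes then gave 2 higher and 0 lower without 311, 11 and 4 without 314, and 12 and 2 without 319.

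Adipose tissue expresses several of the same droplet genes, and its markers were read for that reason. Of the genes that define adipocytes, Adipoq (adiponectin) had 6 counts over all 8 mice, Lep 0, Retn 6 and Ucp1 3. Other genes of the list were expressed in both groups, with Car3 at 662.0 and 710.1 CPM, Fabp4 at 143.3 and 97.2 CPM and Adrb3 at 14.6 and 14.5 CPM in AAV8-GFP and AAV8-AGXT mice. Of the 10 adipocyte markers, 5 were tested and 2 were called higher, beside 2.45% of all tested genes. They were Lipe (above) and Cfd, the complement factor adipsin (34.9 ± 25.5 to 132.8 ± 55.3 CPM, log2 fold change 1.93 ± 0.46 SE, edgeR adjusted p = 0.0487). The summed level of the 10 markers was 662.3 to 992.9 CPM in AAV8-GFP and 765.2 to 1159.2 CPM in AAV8-AGXT mice (two-sided exact permutation test, p = 0.400). Most of this sum was Car3, so it does not measure the genes that define adipocytes.

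Of the markers of other liver cells, 2 were called by edgeR, and no summed level differed between the groups at p under 0.05 by a two-sided exact permutation test. Of 10 macrophage markers, 1 was called lower, Cd9 (62.5 ± 7.66 to 30.7 ± 7.59 CPM, log2 fold change -1.03 ± 0.18 SE, edgeR adjusted p = 0.0298), and their sum was 575.2 to 955.2 CPM in AAV8-GFP and 239.1 to 811.7 CPM in AAV8-AGXT mice (permutation p = 0.257). At an unadjusted p under 0.05 edgeR gave 2 of the 10 higher and 3 lower. Their estimates were negative for 6 and positive for 4, with a median of -0.57. Of the negative ones, Trem2 (-1.42 ± 0.44 SE, edgeR adjusted p = 0.0852), Gpnmb (-1.03 ± 0.61 SE, 0.313) and Lyz2 (-0.87 ± 0.40 SE, 0.204) were not called. Cd68 (edgeR adjusted p = 0.111) and Csf1r (0.601) were also negative and not called. Marco (3.63 ± 1.09 SE, edgeR adjusted p = 0.0801), Timd4 (2.49 ± 0.72 SE, 0.0736) and Clec4f (0.45 ± 0.30 SE, 0.369) of resident macrophages had positive estimates. Mouse 319 held the highest values, with 156.2 CPM of Marco and 13.6 of Timd4, against 5.94 to 12.4 and 1.34 to 3.04 CPM in the other 3 AAV8-AGXT mice. Of 10 stellate cell and fibroblast markers, 1 was called lower, Acta2, the smooth muscle actin of activated stellate cells (8.31 ± 2.51 to 4.17 ± 0.351 CPM, -0.99 ± 0.22 SE, edgeR adjusted p = 0.0427), with sums of 574.0 to 1019.8 and 261.8 to 658.6 CPM (permutation p = 0.114). The call of Acta2 was kept in 0 of the 8 refits with a mouse left out. At an unadjusted p under 0.05 edgeR gave 0 of these 10 markers higher and 7 lower, beside 13.5% and 12.6% of all tested genes. Estimates were negative for 8 and positive for 2 (Lrat, 0.11, and Reln, 0.22), with a median of -0.83. Uncalled negative ones included Col1a1 (-1.77 ± 0.52 SE, edgeR adjusted p = 0.0769), Col3a1 (-1.37 ± 0.49 SE, 0.118) and Col1a2 (-1.34 ± 0.46 SE, 0.107). None of 6 cholangiocyte markers was called by edgeR, although all 6 had negative log2 fold changes with an unadjusted p under 0.05, beside 12.6% of all genes, and DESeq2 called 5 of them lower, beside 6.37%. The most abundant of them were Spp1 (-1.62 ± 0.46 SE), Epcam (-1.34 ± 0.47 SE) and Sox9 (-0.91 ± 0.27 SE), and the sum was 226.2 to 677.7 CPM in AAV8-GFP and 74.6 to 274.0 CPM in AAV8-AGXT mice (permutation p = 0.0857). None of 8 endothelial markers was called, and none had an unadjusted p under 0.05, by edgeR, DESeq2 or limma-voom, and the sums were 131.3 to 189.2 and 132.4 to 228.3 CPM (permutation p = 0.371). Their most abundant genes were Stab2 (0.14 ± 0.14 SE, and 0.02 without mouse 308), Clec4g (0.34 ± 0.25 SE, and 0.01 without mouse 308) and Cdh5 (0.25 ± 0.17 SE). The part of these cell types in the values of the 10 droplet genes was not tested.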

How the data were processed

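Livers of 8 mice, 4 per group, were measured by paired-end RNA sequencing of stranded mRNA libraries. The authors used Trimmomatic 0.35 for trimming, HISAT2 2.1.0.13 for alignment to GRCm38 and HTSeq-counts 0.6.0 for counting on genes of Ensembl release 90, and the deposited values are the resulting raw counts. The counting options are not given in the sources used here. Positions are from GENCODE M21 on GRCm38, which matched 52403 of 52636 genes.

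Counts were analysed in R 4.3.3 with edgeR 4.0.16 (filterByExpr, TMM, quasi-likelihood test, treatment as the only term, prior count 0.125 for log2 fold changes), checked on simulated counts, with DESeq2 1.42.0, limma-voom (limma 3.58.1), robust estimation, other normalizations and filters, and each mouse left out as alternatives. The common biological coefficient of variation was 23.3%, so precision was set by differences among mice, except for the scarce Pnpla3. FPKM used TMM-scaled CPM over exon length. Ratios were compared by permutation over all 70 arrangements of the mice. Single-gene permutations used log2(CPM + 0.5).

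The members and lists were chosen with earlier results of these data known. Named were the 10 members, Adipoq, Agxt and, of each list, the genes called or otherwise the 3 most abundant. Abhd5, Hilpda, Plin1, Plin3 and the adipocyte markers that were not called were added after values were seen. So were the uncalled macrophage, stellate cell and fibroblast markers and PPARα targets that are named. Of 10 hepatocyte markers, 1 had no matching symbol. No paired analysis was possible because the groups share no replicate numbers.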

Additional observations from a re-analysis of the deposited data

Results flagged for a closer look

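Cidec in AAV8-GFP mouse 303 was at 358.2 CPM, and the nearest mouse of its group was at 266.5 CPM. This gap made up most of the range of the 4 AAV8-GFP mice, which set the value apart by Dixon's test at the 95% level. Of 28 groups of 4 values tested in this way it was the 1 that stood out, and chance gives about 1 in 20.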

How the results depend on the processing

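Of 159 refitted log2 fold changes of the 10 genes, 133 kept their direction and side of the threshold. Pnpla2 lost its call in 10 refits, so that 0 of the 10 genes were called higher with the size factors of DESeq2, with total counts, with upper-quartile factors and with at least 10 counts in every mouse, and 0 to 2 with 1 mouse left out. Pnpla3 could not be tested under that last filter. All genes gave 1068 higher and 1033 lower with DESeq2 and 144 and 857 with total counts, and with 1 mouse left out 2 to 379 higher and 0 to 325 lower. The causes of these differences were not tested.

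The direction turned for Hsd17b13 with DESeq2 (-0.0026), its size factors (-0.0051), total counts (-0.2202), upper-quartile factors (-0.0534), no filter (-0.0140) and the filter of 10 counts (-0.0305), and with total counts for Cidec (-0.0047), Abhd5 (-0.0354) and Stab2 (-0.1121). With 1 mouse left out it turned for Plin4 (-0.2629 to 0.0662), Pnpla3 (-0.3382 to 0.1242), Hsd17b13 (-0.0777 to 0.0829), Pnpla6 (-0.0802 to 0.0989) and the log2 ratios of G0s2 to Pnpla2 (-0.3613 to 0.2619) and Cidec to Cideb (-0.0847 to 0.1141).

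DESeq2 called 2 further droplet-bound proteins, 4 genes of droplet formation, 4 of the lipase partners, 8 PPARα targets, 4 hepatocyte markers and 1 macrophage marker higher, and 2 lipase partners, 1 transcription factor, 3 macrophage, 2 stellate cell and 5 cholangiocyte markers lower. With total counts 1 gene of droplet formation, 0 lipase partners, 1 transcription factor, 3 PPARα targets and 0 adipocyte markers were higher, and 1 lipase partner, 2 transcription factors and 1 cholangiocyte marker were lower. With 1 mouse left out the lists gave 0 to 1 droplet-bound proteins, 0 to 2 genes of droplet formation, 0 to 1 lipase partners, 0 to 2 transcription factors, 0 to 5 PPARα targets, 0 to 1 hepatocyte and 0 to 2 adipocyte markers higher, and 0 to 2 macrophage, 0 stellate cell and 0 to 2 cholangiocyte markers lower.

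Levels in FPKM over the longest transcript were 761.4 and 912.5 for Plin2 in AAV8-GFP and AAV8-AGXT mice, 27.0 and 32.3 for Cideb and 282.6 and 284.3 for Hsd17b13, and 85.9 for Pnpla2 in AAV8-AGXT mice. On its unshared bases, a length chosen after seeing the data, Cideb came to 92.9 and 111.1 FPKM, and its share of the summed CIDE FPKM to 30.7% and 26.2%, with 50.1% and 43.1% for Cidec and 30.7% for Cidea in AAV8-AGXT mice. With total counts Cideb was at 23.8 FPKM in AAV8-GFP mice and Hsd17b13 at 207.9 FPKM in AAV8-AGXT mice.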
